A study of Homo sapiens with 6 samples.

Results

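Transcripts of 10 genes of insulin receptor signalling and of the muscle atrophy programme that FOXO factors drive were followed in cardiomyocytes differentiated from the established human iPSC (induced pluripotent stem cell) line WTC11. The genes were taken by symbol from the 38557 genes that the count files list, and all 10 were present and passed the filter on low counts. They are the insulin receptor INSR, the insulin-like growth factor 1 receptor IGF1R and the receptor ERBB3, the receptor substrates IRS1 and IRS2, the PI3K inhibitor PIK3IP1, the transcription factors FOXO1 and FOXO3, and the ubiquitin ligases FBXO32 and TRIM63. They were listed by symbol for their place in the pathway. No measured value enters the rule, although earlier results of these data were known when the genes were chosen. The cells, labelled wild type, had been kept in one of 2 media, RPMI plus B27 (a serum-free supplement), here B27 medium, or DMEM plus fatty acids, here fatty acid medium, with 3 biological replicates in each medium and libraries made with a stranded mRNA kit. The labels give neither the insulin content, the glucose content nor the other composition of the media, nor the time spent in them, and all cells come from 1 line. Whether the replicates are separate differentiations is not stated, so p-values measure only the spread between these samples, which may be technical.

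Insulin and insulin-like growth factors bind INSR and IGF1R, which phosphorylate IRS1 and IRS2, and these recruit PI3K, whose product activates the kinase AKT. AKT phosphorylates FOXO1 and FOXO3 and keeps them out of the nucleus. When the signal is weak, nuclear FOXO factors raise transcription of the ligases FBXO32 (atrogin-1) and TRIM63 (MuRF1), which mark muscle proteins for the proteasome, and can also raise that of INSR, IRS2 and ERBB3, receptors and substrates upstream of themselves. The measurements here are of mRNA only, so neither phosphorylation nor the location of FOXO proteins was seen.

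The libraries held 23232324 to 31035389 gene counts. Levels are CPM, each gene's count relative to the library's total after TMM scaling between libraries. Fold changes are log2 ratios of fatty acid to B27 medium, ± their standard errors. The 12 cardiomyocyte markers summed to 31664 to 38368 CPM in B27 medium and 24960.1 to 35656 CPM in fatty acid medium, so markers of the labelled cell type were abundant in each library. By edgeR, 0 of the 12 were called without the replicate number as a block and 2 with it, both lower. These were MYH7 (means of 9638 and 4000 CPM in B27 and fatty acid medium, adjusted p 0.0359) and ACTN2 (2218 and 1109 CPM, adjusted p 0.0494). MYH6 was higher without overlap (4758 and 8653 CPM, adjusted p 0.166, and 0.0797 with the block). The DESeq2 Wald test without the block called MYH6 higher (adjusted p 0.0179) and MYH7 and ACTN2 lower (adjusted p 0.0124 and 0.0210). The 12 fibroblast and stromal markers summed to 4329 to 8364 CPM in B27 medium, highest in replicate 1, and to 757 to 1954 CPM in fatty acid medium, with 5 of 12 called lower. The 6 smooth muscle markers went from 1572 to 1979 CPM down to 316 to 1147 CPM, with 1 of 6 called lower, and the 7 epicardial markers from 1356 to 1643 CPM down to 626 to 704 CPM, with 1 of the 4 tested called lower. That call was KRT8, and the keratins KRT8 and KRT19 (means of 1301 and 179 CPM in B27 medium) made up nearly all of the epicardial sum, while TBX18 averaged 4.98 CPM and WT1 0.564 CPM. The 6 hepatic endoderm markers summed to 15.9, 43.7 and 108 CPM in B27 replicates 1 to 3 and to 7.62, 21.5 and 30.7 CPM in the same replicates in fatty acid medium, with 0 of the 3 tested called without the block and 1 with it (AFP, adjusted p 0.0255, at 0 counts in B27 replicate 1). Endothelial markers summed to at most 2.64 CPM and neural crest and Schwann markers to at most 1.28 CPM in any library, with SOX10 at 0 counts in all 3 B27 libraries and FOXD3 at 0 in all 6. The part of the cardiomyocyte, stromal, smooth muscle, keratin and hepatic marker differences in the values below was not tested. In bulk RNA, fewer cells of a type and less RNA per cell cannot be told apart.

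Of the 10 genes, 1 passed an adjusted p of 0.05, FBXO32, and it rose (edgeR quasi-likelihood test, Benjamini-Hochberg over 16107 genes). Over all genes tested, 1.36% passed, 0.292% upward and 1.07% downward (47 and 172 genes, or 74 and 128 where libraries were scaled by their totals). The replicate numbers were taken to pair the cultures across media, and with the number as a block 3 of the 10 passed, FBXO32 upward and INSR and ERBB3 downward, where 4.78% of all genes did (1.36% higher, 3.42% lower). The DESeq2 Wald test without the block also called 3, FBXO32, ERBB3 and IRS1, against 7.52% of all genes. At an unadjusted p under 0.05 there were 4 of the 10 (FBXO32, IRS1, ERBB3 and INSR) and 17.7% of all genes. The media did not overlap in CPM for 5 of the 10, FBXO32 and FOXO3 higher (12.8% of all genes) and INSR, IRS1 and ERBB3 lower (12.8%), against 25.6% of all genes in either direction. The median log2 fold change was -0.20 over the 10 genes and 0.0090 over all tested genes, the latter 0.12 under scaling by library totals.

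**Figure D1:**
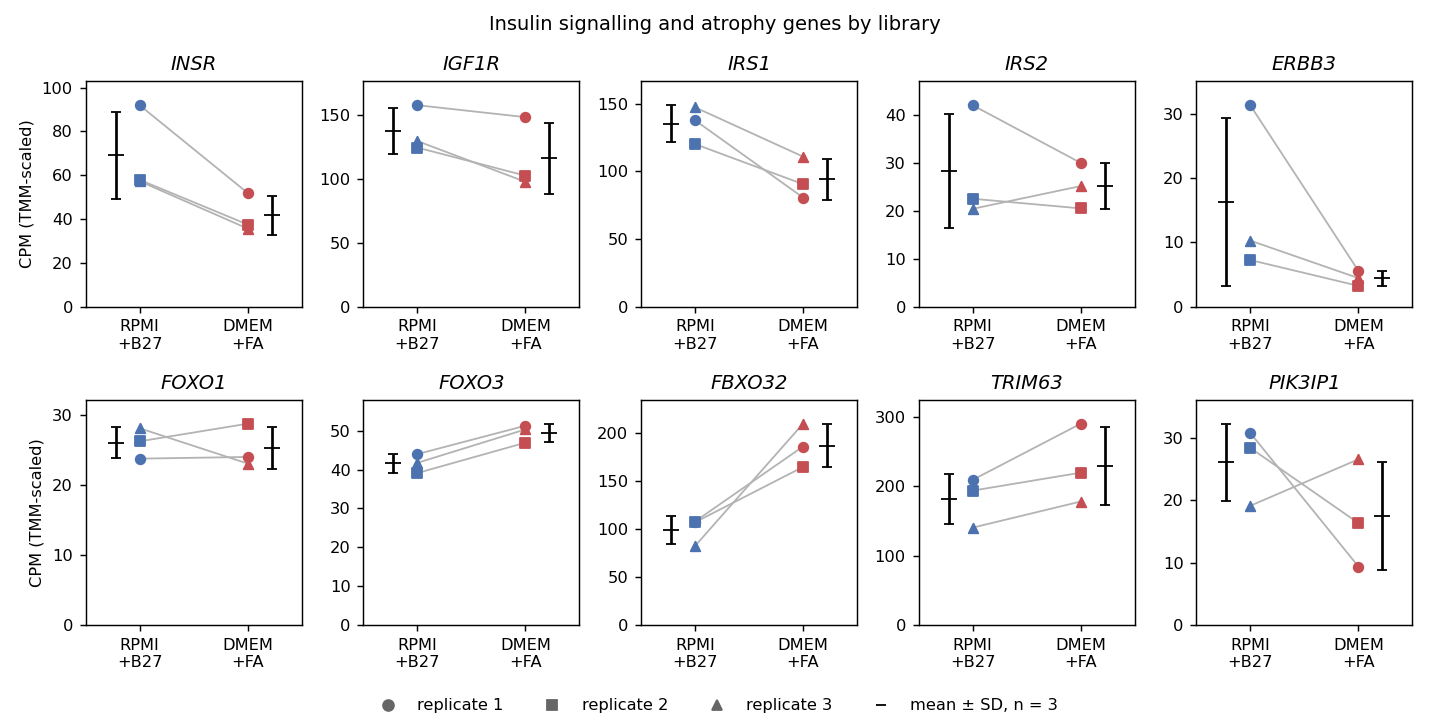
CPM (TMM-scaled) of each of the 10 genes in the 6 libraries, with lines joining cultures of the same replicate number and bars giving the mean ± SD of 3 libraries per medium. FBXO32 and FOXO3 are higher and INSR, IRS1 and ERBB3 are lower in every fatty acid library than in any B27 library. The lines of PIK3IP1, IRS2 and FOXO1 do not all run in the same direction.

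INSR (chromosome 19, 7112255 to 7294034, minus strand; positions throughout are from GENCODE release 29 on GRCh38, promoters aside) encodes the receptor tyrosine kinase for insulin. It stood at 91.9, 57.9 and 57.2 CPM in B27 replicates 1 to 3 and at 51.8, 37.4 and 35.6 CPM in the same replicates in fatty acid medium. Replicate 1 was highest in both media, and the highest fatty acid value lay below the lowest B27 value. The log2 fold change was -0.73 ± 0.23 (adjusted p 0.175). With the replicate block it was -0.71 ± 0.10 and passed (adjusted p 0.0238), and the differences within pairs were -0.83, -0.63 and -0.69. Without B27 replicate 1 the log2 fold change was -0.47 ± 0.18 (adjusted p 0.302).

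IGF1R (chromosome 15, 98648539 to 98964530, plus strand) encodes the closest relative of the insulin receptor, with which it can form hybrid receptors. Its 158, 124 and 129.6 CPM in B27 medium overlapped with 148, 102 and 97.6 CPM in fatty acid medium. Replicate 1 was again the highest in both media, and each pair was lower in fatty acid medium, with differences of -0.088, -0.28 and -0.41 on the log2 scale. The fold change did not pass without the block (-0.24 ± 0.19, adjusted p 0.548) or with it (-0.26 ± 0.11, adjusted p 0.216), and ran from -0.46 to -0.13 with 1 library left out.

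ERBB3 (chromosome 12, 56076799 to 56103505, plus strand) encodes a neuregulin receptor with little kinase activity of its own, which binds PI3K directly when its partner ERBB2 phosphorylates it. It had the lowest mean CPM of the 10 genes in both media and, in B27 medium, the widest relative spread. It stood at 31.3, 7.23 and 10.3 CPM in B27 medium and 5.55, 3.21 and 4.42 CPM in fatty acid medium. In B27 replicate 1 it was not the lowest, with FOXO1 at 23.7 CPM and PIK3IP1 at 30.8 CPM. B27 replicate 1 stood far above the other libraries, although the media did not overlap without it either. The log2 fold change was -1.89 ± 0.55 (adjusted p 0.149). ERBB3 fell once the replicate number was a block (-1.64 ± 0.30, adjusted p 0.0413), and the differences within pairs were -2.48, -1.15 and -1.20. Leaving out B27 replicate 1 brought the log2 fold change to -0.997 ± 0.30 (adjusted p 0.206). That library also had the highest stromal marker sum, 8364 CPM, and the highest sum of neural crest and Schwann markers, 1.28 CPM. Its partners ERBB2 (481 ± 90.8 and 444 ± 31.9 CPM) and ERBB4, the neuregulin receptor best known from cardiomyocytes (78.3 ± 7.51 and 82.9 ± 26.9 CPM; SD, n = 3 each), had log2 fold changes of -0.12 ± 0.16 and 0.082 ± 0.22 and passed in neither fit.

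IRS1 (chromosome 2, 226731317 to 226799759, minus strand), the first described of the insulin receptor substrates, measured 138, 120.2 and 147 CPM in B27 medium and 80.6, 90.5 and 111 CPM in fatty acid medium. All 3 pairs were lower, with differences of -0.77, -0.41 and -0.41 on the log2 scale, and the media did not overlap under TMM scaling. Under scaling by library totals they did, with 117.5 CPM in B27 replicate 2 and 120.5 CPM in fatty acid replicate 3. The log2 fold change of -0.52 ± 0.15 did not pass in edgeR without the block (adjusted p 0.147) or with it (-0.53 ± 0.12, adjusted p 0.0611), and passed in DESeq2 (adjusted p 0.0465).

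IRS2 (chromosome 13, 109752698 to 109786568, minus strand), the substrate that FOXO factors and fasting are known to raise in liver, had 42.1, 22.5 and 20.4 CPM in B27 medium and 30.1, 20.5 and 25.2 CPM in fatty acid medium. The media overlapped widely and the pairs disagreed, with -0.49, -0.13 and 0.30. The log2 fold change was -0.17 ± 0.30 (adjusted p 0.806), and without B27 replicate 1 it turned to 0.23 ± 0.19.

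PIK3IP1 (chromosome 22, 31281593 to 31292534, minus strand) encodes a membrane protein that binds and inhibits the catalytic subunit of PI3K. Its 30.8, 28.4 and 19.1 CPM in B27 medium compared with 9.39, 16.4 and 26.6 CPM in fatty acid medium. The order of the replicates was opposite in the media, so the pairs differed by -1.71, -0.79 and 0.47. It was the gene with the widest relative spread in fatty acid medium (17.4 ± 8.65 CPM), and its log2 fold change of -0.58 ± 0.37 did not pass (adjusted p 0.457, and 0.348 with the block). It was -0.29 without fatty acid replicate 1 and -1.01 without fatty acid replicate 3. PIK3IP1 shares 36 bases of annotated exon with the antisense gene PIK3IP1-AS1, which had 2 to 7 counts per library.

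FOXO1 (chromosome 13, 40469953 to 40666597, minus strand) and FOXO3 (chromosome 6, 108559835 to 108684774, plus strand) encode the main FOXO transcription factors of heart and skeletal muscle. FOXO1 was level, at 23.7, 26.2 and 28.1 CPM in B27 medium and 24, 28.7 and 23.0 CPM in fatty acid medium. Its log2 fold change was -0.043 ± 0.15 (adjusted p 0.904). It turned to 0.064 under scaling by library totals, to 0.018 without B27 replicate 3 and to 0.024 without fatty acid replicate 3. FOXO3 was slightly higher in each fatty acid library, at 51.3, 46.9 and 50.3 CPM against 44.0, 39.1 and 41.7 CPM. The 3 pairs differed by 0.22, 0.26 and 0.27, and the log2 fold change of 0.25 ± 0.11 did not pass without the block (adjusted p 0.300) or with it (0.193). FOXO3 has a processed pseudogene copy, FOXO3B, listed at 55 to 120 counts per library against 919 to 1698 for FOXO3, and reads that align to both places equally well were set aside by the counting, so FOXO3 may be undercounted.

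FBXO32, the F-box subunit that selects substrates for an SCF ubiquitin ligase in atrophying muscle, rose 1.89-fold. It measured 108, 107 and 82.3 CPM in B27 medium and 186, 165 and 209.9 CPM in fatty acid medium. The groups were well apart, with the lowest fatty acid library above the highest B27 library under TMM scaling and under library totals, and all 3 pairs were higher, by 0.79, 0.62 and 1.35 on the log2 scale. The log2 fold change was 0.92 ± 0.15 (adjusted p 0.0442), and 0.92 ± 0.16 (adjusted p 0.0359) where the replicate number entered as a block. FBXO32 lost its call when any 1 of the 6 libraries was left out (log2 fold change 0.80 to 1.00, adjusted p 0.0734 to 0.123) and when testing was limited to genes reaching 10 counts in all 6 libraries (0.91, adjusted p 0.0553).

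TRIM63 (chromosome 1, 26051304 to 26068436, minus strand), a RING-finger ligase of the sarcomere, did not pass. Its 209, 194 and 140.2 CPM in B27 medium overlapped with 290.0, 219 and 178 CPM in fatty acid medium. Both media ran in the same order of replicates, with replicate 1 highest and replicate 3 lowest, and the pairs were 0.47, 0.18 and 0.34 higher in fatty acid medium. The log2 fold change was 0.34 ± 0.22 (adjusted p 0.467), and 0.33 ± 0.11 (adjusted p 0.144) with the block, and ran from 0.13 to 0.50 with 1 library left out. The other MuRF genes did not pass either, TRIM54 (MuRF3) at 0.43 ± 0.21 and TRIM55 (MuRF2) at -0.38 ± 0.20.

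**Figure D2:**
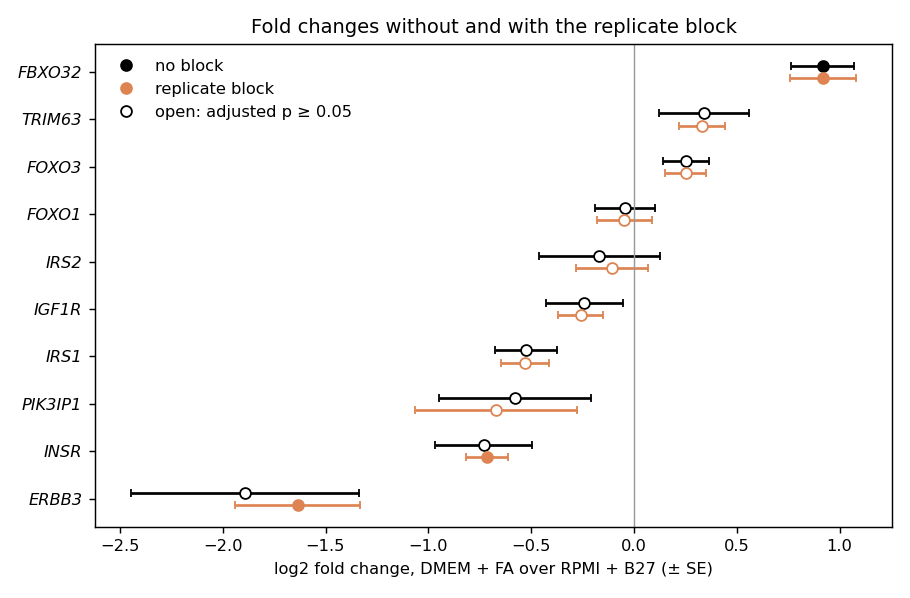
Log2 fold change of each gene, fatty acid medium over B27 medium, with its standard error, in the fit without (black) and with (orange) the replicate block, filled where the adjusted p was under 0.05. FBXO32 is filled in both fits, and INSR (-0.71 with the block) and ERBB3 (-1.64) with the block alone.

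The same replicate number was highest in both media for 7 of the 10 genes and for 47.5% of all tested genes, a difference that was not tested. In 6 of the 7 it was replicate 1 (INSR, IGF1R, IRS2, ERBB3, FOXO3 and TRIM63), and in IRS1 it was replicate 3. The exceptions were FOXO1, FBXO32 and PIK3IP1, of which the last 2 were highest in replicate 1 in B27 medium and in replicate 3 in fatty acid medium.

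Compared per kilobase of annotated exon, the sarcomeric ligase TRIM63 was the most abundant of the 10 in both media, at 70.3 ± 14 CPM per kilobase (SD, n = 3) in B27 medium and 89.0 ± 22 (SD, n = 3) in the other, and its lowest library lay above the highest of the next gene in either medium. In B27 medium IRS1 (13.6 ± 1.38) and FBXO32 (13.4 ± 1.97) came next and overlapped, followed by IGF1R (9.84 ± 1.28), which overlapped with FBXO32. In fatty acid medium FBXO32 stood alone in the second place, at 25.3 ± 3.05 against 9.44 ± 1.55 for IRS1 and 8.33 ± 2.01 for IGF1R, and these last overlapped. The middle of the order was PIK3IP1, INSR, FOXO3, FOXO1 and IRS2 in B27 medium (6.87, 6.60, 5.39, 4.17 and 3.49 CPM per kilobase), where neighbours overlapped except FOXO3 and FOXO1. In fatty acid medium it was FOXO3, PIK3IP1, FOXO1, INSR and IRS2 (6.41, 4.58, 4.05, 3.98 and 3.10 CPM per kilobase), where all neighbours overlapped. ERBB3 was lowest in both, at 1.80 ± 1.45 CPM per kilobase in B27 medium, where it overlapped with IRS2, and at 0.486 ± 0.130 in fatty acid medium, where it did not. The lengths are those of GENCODE release 29, and the annotation behind the deposited counts is not given in the sources used here, so the order depends on that choice.

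**Figure D3:**
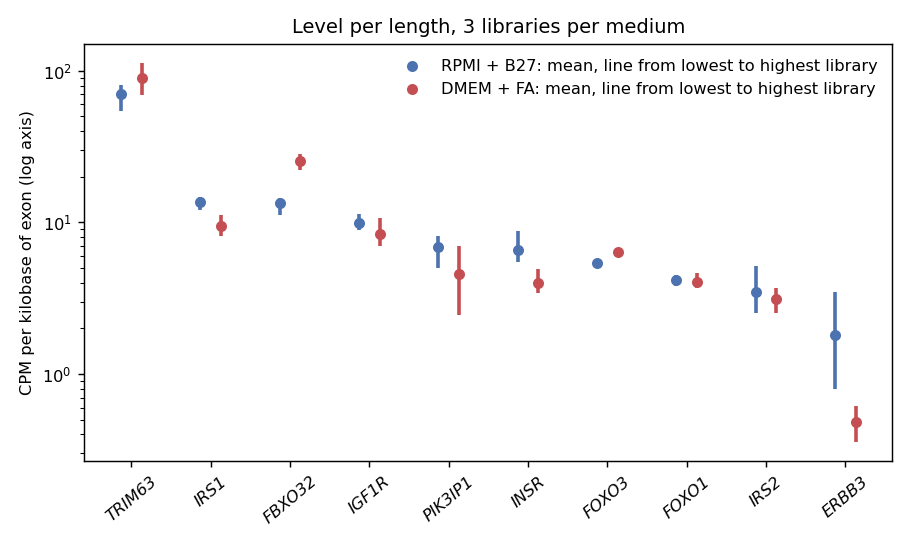
Level of each gene per kilobase of exon (CPM per kilobase, log axis) in both media, with the mean as a point and a line from the lowest to the highest of 3 libraries. TRIM63 lies above all others in both media, and FBXO32 moves from beside IRS1 (13.4 and 13.6) to clearly above it (25.3 and 9.44).

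Shares within related pairs of genes do not depend on how libraries are scaled to each other. INSR made up 36.8%, 31.7% and 30.6% of the counts of INSR plus IGF1R in B27 medium, and 25.9%, 26.8% and 26.7% in fatty acid medium. The difference was -6.61 percentage points, lower in 3 of 3 pairs and without overlap. TRIM63 made up 66.0%, 64.4% and 63.0% of TRIM63 plus FBXO32 in B27 medium and 60.9%, 57.1% and 45.9% in fatty acid medium, a difference of -9.83 points, also in 3 of 3 pairs and without overlap, and of -5.45 points without fatty acid replicate 3. Both had p = 0.1 in the exact two-sided permutation test, the smallest that 3 against 3 libraries allow, and 0.2 after adjustment over the 4 pairs tested, so neither passed. FOXO3 made up 61.5 ± 2.96% of FOXO3 plus FOXO1 in B27 medium and 66.3 ± 3.67% in fatty acid medium (SD, n = 3 each; exact permutation p = 0.2, adjusted 0.267). IRS2 made up 17.1 ± 5.74% and 21.4 ± 5.00% of IRS2 plus IRS1 (SD, n = 3 each; exact permutation p = 0.4, adjusted 0.4). Media overlapped for the last 2 shares, although each was higher in fatty acid medium in 3 of 3 pairs. The IRS2 difference of 4.26 points ran from 1.38 points without fatty acid replicate 1 and 1.79 without B27 replicate 3 to 7.40 without B27 replicate 1.

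**Figure D4:**
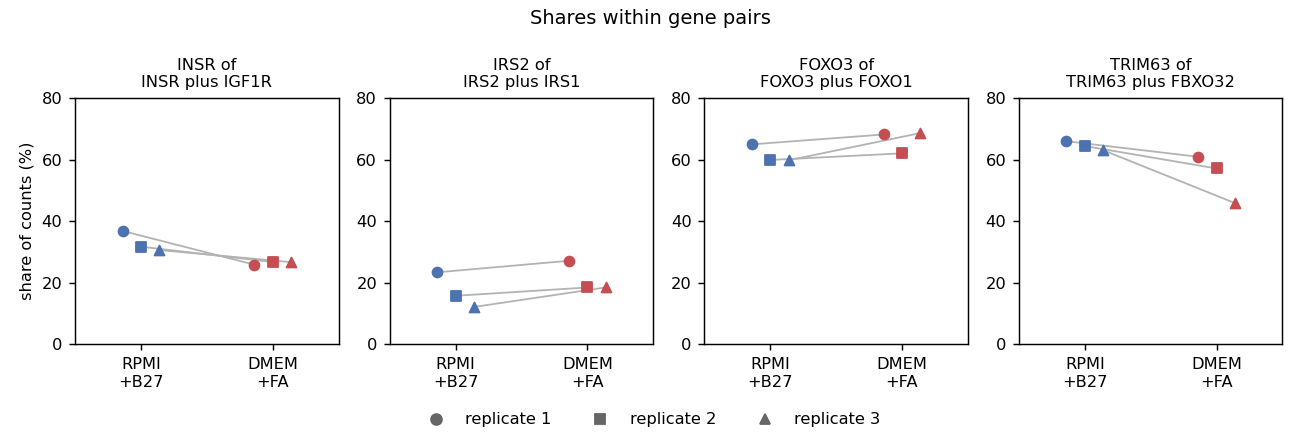
Share of counts (%) of one gene in the sum of a related pair, by library, with lines joining cultures of the same replicate number. The INSR share draws together at 25.9% to 26.8% in fatty acid medium, and the TRIM63 share spreads from 45.9% to 60.9%.

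Promoter windows of 300 bases, from 250 before to 50 after a transcript start, were available from RefSeq (GRCh38.p14) for 8 of the 10 genes, and ERBB3 and FBXO32 were without one. They were searched on both strands for the FOXO consensus GTAAACA, for CAAAACAA, a form of the insulin response element, and for the shorter FOXO core TAAACA, which lies within the first. The consensus was in 1 window of PIK3IP1, and in 3.42% of the 35116 windows of all genes. The insulin response element was in the window of IRS2, and in 1.68% of all windows. The core without the longer consensus was in windows of TRIM63, FOXO3 (1 of its 4 windows) and IGF1R, and in 8.89% of all windows (12.3% with those that hold the consensus counted in). Counted by gene, the consensus was in a window of 4.19% of 27305 genes and the insulin response element in 2.08%. The core without the consensus was in a window of 10.7% of them. The stretches below show these letters in the PI3K inhibitor, in the substrate and in the ligase, with the match in capitals (PIK3IP1 chr22:31292456-31292482, IRS2 chr13:109786607-109786634 and TRIM63 chr1:26067808-26067833, each 5′ to 3′ on the minus strand).
PIK3IP1: aaagagaggcTGTTTACcagaacagca
IRS2: gagtcacatgTTGTTTTGctcttcttag
TRIM63: aggctgttctTGTTTAtgacccccgt
The match began 17 bases into the PIK3IP1 transcript, 41 bases before the IRS2 start and 193 bases before the TRIM63 start. None of the 3 genes with a printed stretch passed the test between media, and no binding was measured. The windows of INSR, IRS1 and FOXO1 held none of these letters.

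The rest of the pathway was read from 91 further genes in 8 groups by role, 90 of them tested. Of these, 0 passed upward and 2 downward without the block, and 3 upward and 4 downward with it, against 1.36% of all genes without and 4.78% with it. An unadjusted p under 0.05 was found for 29 of the 90 (17.7% of all genes), and the DESeq2 test called 12 of the 90 (7.52% of all genes), differences from the background that were not tested. Their median log2 fold change was 0.078. The part of stromal and other marker differences in these values was not tested.

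Among 5 other receptors, 0 passed in either fit and the median was -0.12. The epidermal growth factor receptor EGFR had 5.14 ± 1.57 and 2.55 ± 0.469 CPM in B27 medium and fatty acid medium (log2 fold change -1.01 ± 0.30, adjusted p 0.157). IGF2R, which clears insulin-like growth factor 2, had 222 ± 37.1 and 304 ± 36.9 CPM (0.45 ± 0.16, adjusted p 0.207). Among 8 other adaptors 0 passed in either fit (median -0.13), with SHC1 at -0.36 ± 0.15 and the phosphatase PTPN11 at -0.30 ± 0.15.

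Of 11 genes that restrain insulin receptor signalling, 0 passed without the block and 3 with it, 2 higher and 1 lower, and the median was 0.46. TRIB3, a pseudokinase reported to bind AKT and induced by amino acid and endoplasmic reticulum stress, rose with the block. It stood at 4.94, 5.45 and 4.92 CPM in B27 medium and 51.3, 19.0 and 16.1 CPM in fatty acid medium (log2 fold change 2.49 ± 0.45, adjusted p 0.0520, and 0.0274 with the block). GRB10, an adaptor that inhibits INSR and IGF1R, rose with the block, from 30.3 ± 6.36 to 46.0 ± 7.78 CPM (0.60 ± 0.20, adjusted p 0.179, and 0.0476 with the block). Its media overlapped narrowly, with 37.66 CPM in B27 replicate 3 and 37.55 CPM in fatty acid replicate 2. TRIB1, a relative of TRIB3 known for directing proteins to degradation, fell with the block, from 201 ± 35.6 to 120.1 ± 7.20 CPM (-0.75 ± 0.15, adjusted p 0.0642, and 0.0438 with the block). SOCS3, a feedback inhibitor induced by cytokines, had -1.07 ± 0.48, and its 76.3 CPM in B27 replicate 1 stood apart from 16.0 to 26 CPM in the other 5 libraries.

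The 14 genes of PI3K and AKT had a median of -0.0010, and 0 passed in either fit. The regulatory subunit PIK3R3 had 0.67 ± 0.30 (adjusted p 0.296). Of the 14 genes of the TSC and mTOR branch, 0 passed without the block and 1 with it, RICTOR, the defining subunit of mTOR complex 2, which fell with the block (75.4 ± 22.4 and 50.2 ± 10.9 CPM, -0.59 ± 0.24, adjusted p 0.268, and 0.0398 with the block). The media overlapped for RICTOR, with 57.9 CPM in B27 replicate 3 and 61.4 CPM in fatty acid replicate 1. The stress-induced mTORC1 inhibitors SESN2 and DDIT4 had 0.80 ± 0.20 and -0.61 ± 0.31 and passed in neither fit. The median of this branch was 0.17.

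Of 6 other FOXO factors and co-regulators 0 passed in either fit (median -0.042), with the kinase SGK1 at 0.71 ± 0.35 and the deacetylase SIRT1 at 0.33 ± 0.12. Among 17 tested genes that FOXO factors are known to induce, apart from the ligases, 2 fell and 0 rose without the block, and 2 fell and 1 rose with it, with a median of 0.095. The genes that fell were TXNIP, whose transcription also follows glucose, from 225 ± 47.9 to 10.3 ± 3.26 CPM (-4.45 ± 0.30, adjusted p 0.00478), and BNIP3, a mitophagy receptor also induced by hypoxia, from 196 ± 71.3 to 47.8 ± 16.3 CPM (-2.04 ± 0.32, adjusted p 0.0402). TXNIP kept its call with any 1 library left out, while BNIP3 kept its own only without B27 replicate 3 and lost it without each of the other 5 libraries (-2.36 to -1.72, adjusted p 0.0737 to 0.134). The gene that rose with the block was CAT, the peroxisomal catalase (0.69 ± 0.20, adjusted p 0.147, and 0.0440 with the block). FBXO32 moved in the opposite direction to TXNIP and BNIP3, while of the 17 genes 9 had a log2 fold change above 0 and 8 below. Of 15 other ligases and factors of muscle atrophy 0 passed in either fit (median 0.075), and UBE2D1, a ubiquitin-conjugating enzyme, had the largest log2 fold change among those above 5 CPM (0.51 ± 0.15, adjusted p 0.143).

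**Figure D5:**
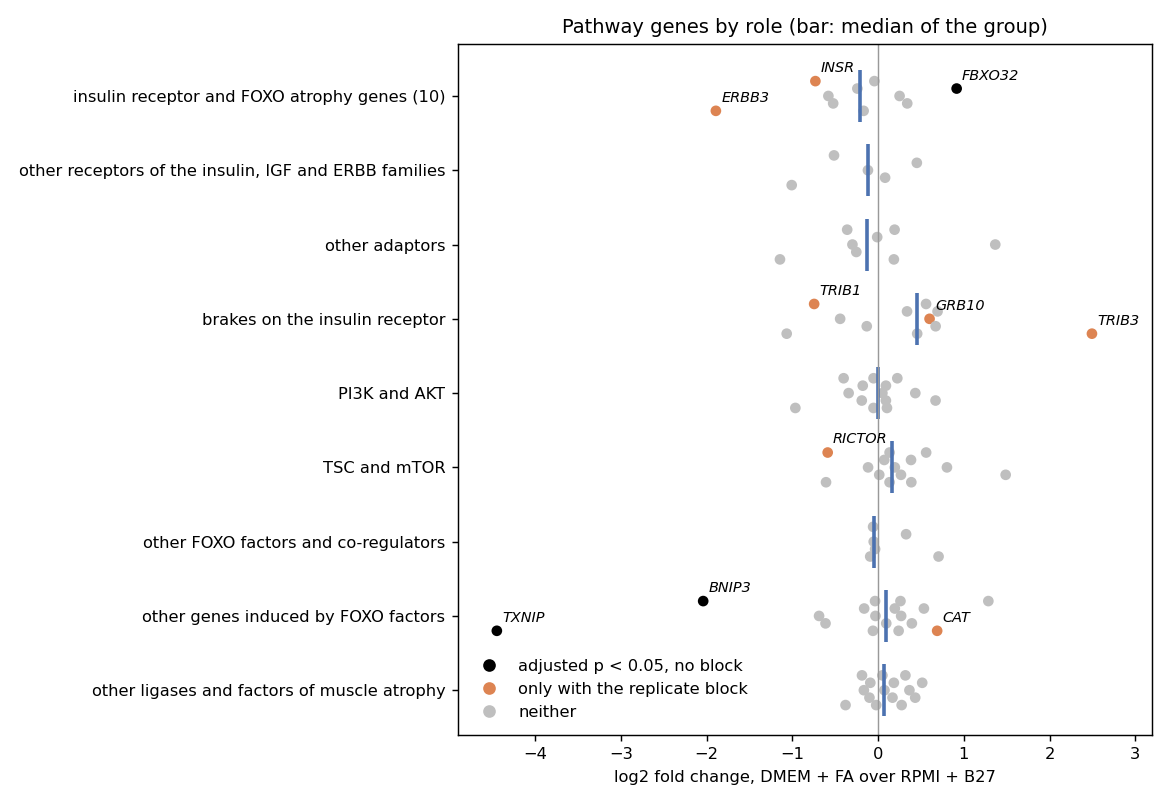
Log2 fold change of the 10 genes (top row) and of 90 other tested pathway genes in 8 groups by role, 1 point per gene, with a bar at each group's median. TXNIP (-4.45) and BNIP3 (-2.04) are called downward without the block, and group medians lie between -0.20 and 0.46.

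The genes whose profile over the 6 libraries came closest to that of FBXO32, measured as the root mean square distance of log2 CPM centred on each gene's mean among 10272 genes, were INTS6L (0.149), ABCC5 (0.150), SUSD4 (0.155) and MYL5 (0.155). The median distance of all 10272 was 0.524, and among the other 9 genes of the group the closest were FOXO3 (0.370) and TRIM63 (0.398) and the farthest ERBB3 (1.42). INTS6L, an Integrator complex subunit relative, had a log2 fold change of 0.71 ± 0.12 (adjusted p 0.0486, and 0.0917 to 0.166 with any 1 library left out), and MYL5, a myosin light chain, 0.76 ± 0.14 (adjusted p 0.0543, and 0.0369 with the block). Likeness was taken from the same libraries as the fold changes, so it is a description.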

How the data were processed

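The authors deposited one table of raw read counts by gene symbol for each library, neither normalized nor pooled. STAR, HTSeq and the build hg38 are named in the submitters' processing notes, and versions, annotation and strand setting are not given in the sources used here. Summary rows of the counter name no gene and were left out (reads without a gene 5.44% to 7.57%, ambiguous 3.90% to 4.15%, not uniquely aligned 3.06% to 4.10% of each file). Libraries were filtered with filterByExpr (minimum count 10, minimum total 15; 16107 genes kept), scaled by TMM and tested with edgeR 4.0.16 (quasi-likelihood, Benjamini-Hochberg, threshold 0.05) in R 4.3.3, with DESeq2 1.42.0 as an alternative. All scripts for tests across genes were checked on simulated data. The simulated spread was set below that of these libraries and held no effect of the replicate number, so the check does not show how the calls hold at their noise. Each standard error is the log2 fold change divided by the root of its F statistic, and pair differences use log2 CPM with a prior count of 2.

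Groups and replicate numbers come from the titles. Deviations of same-numbered libraries from their medium's mean correlated at 0.31, 0.43 and 0.37 across genes and those of other numbers at -0.24 to -0.14, so the numbers were taken as pairing cultures, although their meaning is not stated in the labels. Deviations from a mean cancel within a medium, so positive values for the same number bring negative ones for the others. The pairing was read from the same counts that the fit with the block uses.

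The 10 genes and the lists were chosen with earlier results of these data known. Named in the text were all 10 genes, list genes called in either fit, the 2 largest changes per list among genes of at least 5 CPM in either medium, and the 4 closest profiles among genes of at least 10 CPM. One gene that this rule takes is not reported here. ERBB2, ERBB4, TRIM55 and the core motif TAAACA were added after their values were seen. Positions and exon lengths are from GENCODE release 29 (GRCh38), promoter windows from RefSeq.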

Additional observations from a re-analysis of the deposited data

How the results depend on the processing

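Among the 10 genes, 8 kept their direction in each of 12 alternatives. FOXO1 turned to 0.064 under scaling by library totals, and ranged from -0.14 to 0.024 with 1 library left out, IRS2 from -0.36 to 0.23, and neither passed in any fit. The number of the 10 genes called was 1, and 0 where genes had to reach 10 counts in all 6 libraries, 3 by the DESeq2 Wald test, 3 with the replicate block and 0 to 0 over the 6 fits that left out 1 library (edgeR; 4 of the 10 had an unadjusted p under 0.05 with all libraries). Other pathway genes called numbered 2, and 5 without the low-count filter, 12 by DESeq2, 7 with the replicate block and 1 to 3 with 1 library left out. Of all genes, 219 were called (47 higher, 172 lower). There were 539 (126 and 413) without the filter, 119 (29 and 90) where 10 counts were required in all 6 libraries, 1212 (386 and 826) by DESeq2 and 770 (219 and 551) with the replicate block. Scaling by library totals gave 202 (74 and 128), and leaving out 1 library gave 3 to 131 (1 to 9 and 2 to 122). The cause of these differences was not tested, beyond the smaller number of libraries or genes. With the replicate block, the residual degrees of freedom drop from 4 to 2. The block changed no call of the 10 genes but those of INSR and ERBB3. The 4 shares within pairs kept their direction throughout, and their mean differences within pairs equal the main ones (-6.61, 4.26, 4.73 and -9.83 points; sign-flip p 0.25 each, the smallest that 3 pairs allow). Depth limits ERBB3 most among the 10, with 96 to 831 counts per library, and a count of 0 in a library allows up to 0.0889 to 0.129 CPM, for counting error only.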
